A study of Caenorhabditis elegans with 6 samples.

Results

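The genes examined here are the collagen genes of Caenorhabditis elegans that carry the name col, most of them cuticle collagens. They were chosen by symbol alone: every gene whose symbol in the array annotation is "col-" followed by a number. The rule also takes in col-99, a membrane-spanning collagen gene. The annotation names 148 such genes. Of these, 128 have at least 1 probe set that names no other gene, and they were measured here among 17118 genes in all. The other 20 are named only on probe sets shared between several col genes, and no value is given to any of them. A further 11 of the 159 col genes of the RefSeq gene table are not in the array annotation and were not analysed here. Of the 159, 3 are annotated as pseudogenes.

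Expression was measured in whole adult worms of the strain fer-15(b26), a mutant whose sperm cannot fertilise when it is raised warm, which keeps ageing populations free of progeny. Both groups carry this mutation, were raised at 25 °C from the egg on agar with 0.1% ethanol, and were collected on day 4 of adulthood. The plates of the tyrosol group (3 arrays) also held 250 µM tyrosol, 2-(4-hydroxyphenyl)ethanol, a phenolic alcohol of olive oil, and those of the control group (3 arrays) held the vehicle alone. The number of separate cultures behind the arrays is not stated, so p-values measure the spread between arrays, and in whole worms fewer cells of a type and less RNA per cell cannot be told apart.

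The cuticle is the extracellular coat that the epidermis secretes at the end of embryogenesis and again at each larval moult. It is built mostly of small collagens, each with short blocks of Gly-X-Y repeats, which are hydroxylated in the endoplasmic reticulum, assembled as trimers, trimmed by proteases and cross-linked through tyrosine residues. Most collagen genes are transcribed in waves tied to the moults, some for the cuticle of a single stage, and the last moult precedes the age studied here. Cuticle collagens have also been tied to ageing in worms, since their transcripts decline with adult age and several long-lived mutants keep them higher. The comparison asks which col transcripts differ in adults that received tyrosol, a compound that the series' title ties to a longer lifespan.

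Values are log2 signals of probe sets, processed by robust multiarray averaging (RMA). Signals of different probe sets depend on their probes, so they sort the genes into classes here and do not rank transcripts. By control mean, 73 col genes had a low signal (below 3), 38 a middle signal (from 3 to below 7) and 17 a high signal (7 and above). Nearest the lower limit stood col-66, at 2.99, and col-149, at 3.01, and nearest the upper limit col-147, at 6.80, and col-43, at 7.10. The low limit lies just above the array medians of 2.57 to 2.61, where little can be read from a probe set. The low class held 51 genes on probe sets specific by design (suffix _at), 21 on sets that match several transcripts (_s_at) and 1 on a set with probes shared with other sequences (_x_at). In the high class 5 were of the specific kind, 3 matched several transcripts and 9 held shared probes, on which close copies cannot be told apart.

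No col gene passed a test. The rank product, the test that the study's design text names, called 0 of the 128 genes higher and 0 lower at an estimated false discovery rate under 0.05, beside 0.859% of all genes called higher and 0.0234% called lower. Limma called 0 of 128, beside 0.351% of all genes, and its lowest adjusted p over the col genes was 0.43. At an unadjusted limma p under 0.05 there were 4 col genes, 3.13% of the family, beside 7.21% of all genes. With the replicate number as a block both tests again called 0, where the rank product called 0.946% of all genes higher and 0.0292% lower and limma called 0.73%. The lowest limma adjusted p with the block was 0.12.

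Differences within the family were small and went both ways. The log2 differences ran from -0.48 for col-90 to 0.53 for col-121. Their median was -0.0073, where that over all genes was -0.017. Of the 128 genes 62 lay above 0 and 66 below, and 118 differed by less than 0.25. The share within 0.25 was 92.2%, beside 89.3% of all genes. Class medians were -0.016 in the low class, 0.015 in the middle and -0.041 in the high class. Over all genes of the same classes they were -0.011, -0.019 and -0.035.

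**Figure D1:**
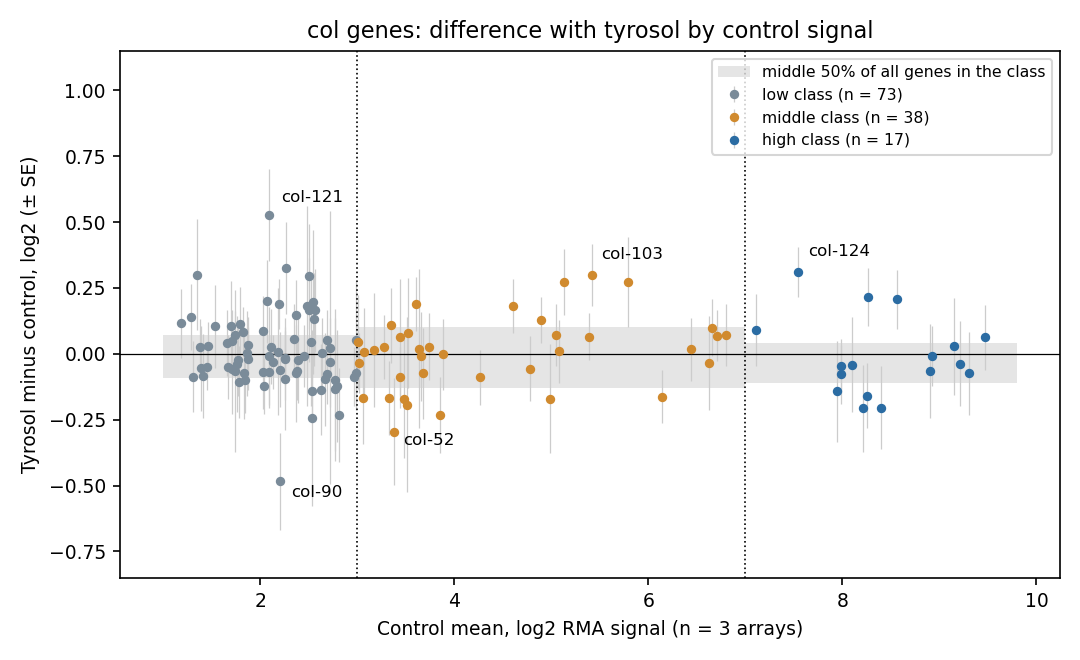
Difference between tyrosol and control (log2, ± SE from limma, n = 3 arrays each) of each of the 128 col genes against its control mean (log2 RMA signal), with dotted lines at the class limits of 3 and 7 and grey bands for the interquartile range of all genes in each class. Most genes lie within 0.25 of 0, and col-121 and col-90 lie farthest from it in either direction.

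The tyrosol values lay wholly above the control values in 6 col genes and wholly below them in 1. These are 4.69% and 0.781% of the family, beside 6.92% and 6.78% of all genes. The 6 were col-121, col-124, col-103, col-20, col-150 and col-19, and the 1 was col-73.

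The largest positive difference was that of col-121, on a low signal. In replicates 1, 2 and 3, in this order here and below, it read 2.10, 2.20 and 1.97 in control worms and 2.35, 3.03 and 2.46 in tyrosol worms. Tyrosol replicate 2 stood highest and set much of the difference, which was 0.53 (SE 0.18, limma adjusted p = 0.49, n = 3 arrays each) with all arrays and 0.32 without that array. A second probe set of col-121 read 2.11, 2.13 and 1.78 in control worms and 2.72, 3.13 and 2.17 in tyrosol worms, again without overlap, and differed by 0.66 (SE 0.22, limma adjusted p = 0.51). Its rank product false discovery rate was 0.066 and that of the first set 0.18. Both sets match several transcripts and both had control means below the array medians, at 2.09 and 2.01.

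In the high class col-124 was the member whose groups separated. It read 7.49, 7.63 and 7.51 in control worms and 7.77, 7.83 and 7.96 in tyrosol worms, a difference of 0.31 (SE 0.095, limma adjusted p = 0.43), or 1.24-fold. This was the lowest limma adjusted p in the family, and the difference stayed between 0.26 and 0.35 without single arrays. Its probe set holds probes shared with other sequences.

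Among middle-class genes col-103 read 5.44, 5.59 and 5.21 in control worms and 5.72, 5.63 and 5.79 in tyrosol worms, and differed by 0.30 (SE 0.12, limma adjusted p = 0.62). For col-20 the control values were 5.02, 5.18 and 5.20 and the tyrosol values 5.25, 5.64 and 5.32, a difference of 0.27 (SE 0.12, limma adjusted p = 0.71). In both genes the highest control value came within 0.1 of the lowest tyrosol value. Smaller still was the gap for col-150, at 3.64, 3.67 and 3.52 against 3.93, 3.80 and 3.67, with a difference of 0.19 (SE 0.10, limma adjusted p = 0.76). A second, dimmer probe set of col-150 went the other way, at -0.18.

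The adult cuticle collagen gene col-19, which is switched on at the last moult under LIN-29 and serves as a marker of the adult epidermis, read 4.85, 4.94 and 4.90 in control worms and 4.98, 5.05 and 5.05 in tyrosol worms. All tyrosol values lay above all control values, by a narrow margin: the difference was 0.13 (SE 0.086, limma adjusted p = 0.81), a 1.09-fold level, and it stayed between 0.10 and 0.15 without single arrays. The single gene with lower tyrosol values throughout, col-73, read 6.05, 6.29 and 6.07 against 5.93, 6.04 and 5.96, and differed by -0.16 (SE 0.10, limma adjusted p = 0.80) on a probe set with shared probes.

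**Figure D2:**
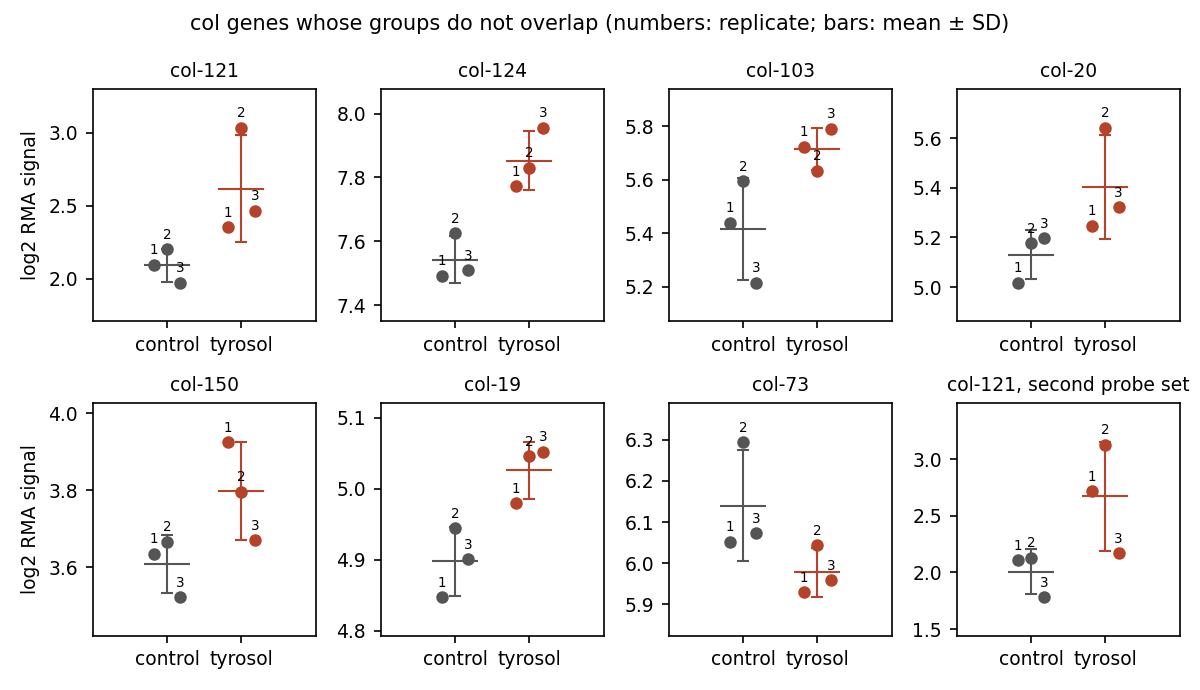
log2 RMA signal on each array (numbers are replicates, horizontal lines with bars are the mean ± SD of 3 arrays) for the 7 col genes whose groups did not overlap, and for the second probe set of col-121. In 6 genes the tyrosol arrays lie above the controls, by gaps under 0.1 in col-19, col-20, col-103 and col-150, and col-73 lies below.

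The largest negative difference, that of col-90, is named after its values were seen. Its control values were 2.12, 2.56 and 1.92 and its tyrosol values 1.70, 1.97 and 1.48, so the groups overlapped, and the difference was -0.48 (SE 0.19, limma adjusted p = 0.61). Between arrays of the same replicate number it was lower with tyrosol each time, by differences of -0.42, -0.59 and -0.44. With the replicate block it had the lowest limma adjusted p of the family, 0.12. The signal is below the array medians.

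Other members with a described role showed no separation. The dauer collagen gene col-2 read 2.63, 2.55 and 2.71 against 2.12, 2.86 and 2.50, a low signal with tyrosol values on both sides of the controls. Among the genes that LIN-29 controls in the last larval stage, col-38 differed by -0.086 (SE 0.11), col-49 by -0.019 (SE 0.12) and col-63 by -0.17 (SE 0.21), and limma adjusted p was 0.90 to 0.98 for these 3. Of them only col-63 was above the low class, at 4.84, 5.20 and 4.92 in control worms and 4.42, 5.26 and 4.77 in tyrosol worms. The differences of col-2, col-49 and col-63 changed sign without tyrosol replicate 1, that of col-49 also without control replicate 2 or tyrosol replicate 3.

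Overexpression of col-10, col-13 or col-120 is known to lengthen the life of worms. Of these, col-120 alone had a probe set of its own, which read 1.10 to 1.57 on the 6 arrays, near the lowest signals of the family, and differed by 0.12 (SE 0.13, limma adjusted p = 0.89), or by -0.020 without tyrosol replicate 2. The near-identical neighbour of col-13, col-12, read 6.35, 6.85 and 6.68 in control worms and 6.46, 6.94 and 6.38 in tyrosol worms on a probe set with shared probes. The groups overlapped, with a difference of -0.034 (SE 0.18, limma adjusted p = 0.98). The membrane-spanning collagen gene col-99 gave low signals on both of its probe sets, 1.57 to 2.24 on the brighter, with overlapping groups. Neither col-12 nor col-99 kept its direction: without single arrays col-12 ran from -0.21 to 0.079 and col-99 from -0.18 to 0.15.

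Across arrays of the same group, col genes varied more than other genes of like signal. The median within-group SD was 0.20 over the 128 col genes and 0.14 over all genes. In the low class it was 0.23 beside 0.14, in the middle class 0.18 beside 0.16, and in the high class 0.19 beside 0.11. Without tyrosol replicate 2 the values were 0.17, 0.16 and 0.15 for the col genes of the low, middle and high class, and 0.13, 0.13 and 0.085 for all genes.

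The median of the family moved between arrays of a group. On tyrosol replicate 2 the low-class col genes lay at a median of 0.21 above their control means, while those on tyrosol replicates 1 and 3 lay at -0.13 and -0.026. Low-class genes of the whole array lay at -0.0020, -0.052 and 0.014 on tyrosol replicates 2, 1 and 3. Tyrosol replicate 2 gave the highest of the 6 values in 45 of the 73 low-class col genes, or 61.6%, beside 19.3% of all low-class genes. This array also departed most from the others beyond the family. Its deviations had an SD of 0.21, beside 0.11 to 0.15 on the other arrays. Its mean correlation was 0.9906, beside 0.9939 to 0.9948. A median near 0 over all genes does not show this. Among controls the low-class median was 0.092 on replicate 2, -0.0043 on replicate 1 and -0.063 on replicate 3.

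The high class showed another pattern. Its median deviation from the control mean was -0.14 on tyrosol replicate 2, against 0.065 and 0.11 on tyrosol replicates 1 and 3. Control replicate 2 was the highest control in this class, at 0.20, with -0.13 and -0.081 on replicates 1 and 3. The lowest of the 6 values fell on tyrosol replicate 2 in 9 of the 17 genes, or 52.9%, beside 34.9% of all high-class genes.

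**Figure D3:**
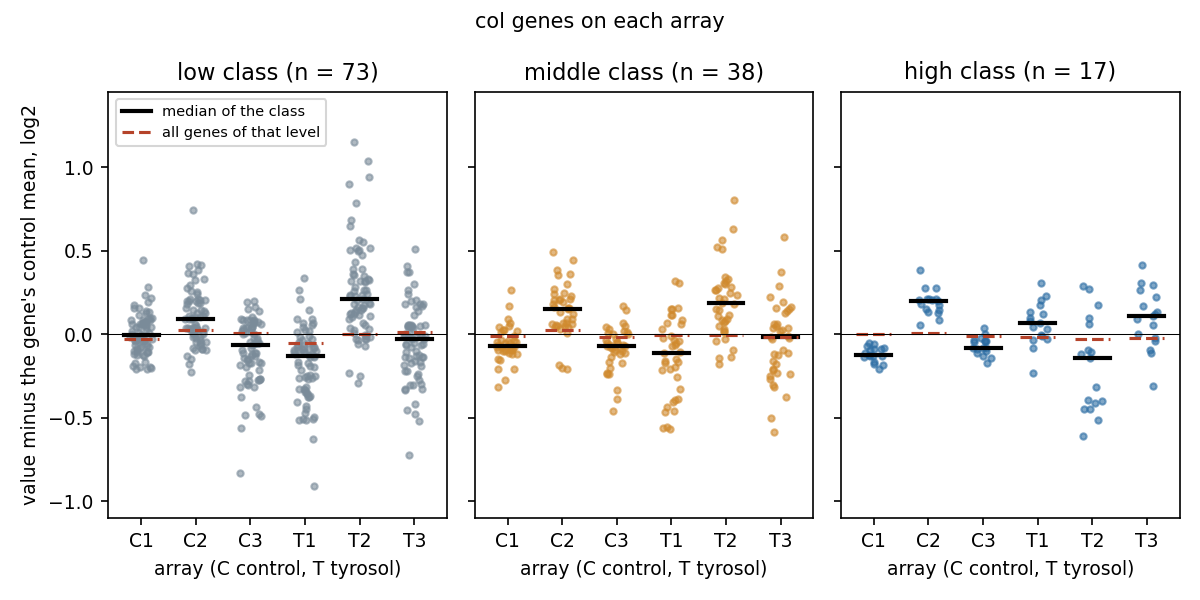
Value of each col gene on each array minus its control mean (log2), by signal class; black lines are class medians and dashed red lines medians of all genes of that class. On tyrosol replicate 2 (T2) the median of the low class lies at 0.21 and that of the high class at -0.14. The medians of all genes stay near 0, though single genes spread most on this array.

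Tyrosol replicate 2 also had the highest value in a measure taken on control transcripts, which are no worm RNA and do not report on its quality. In 5 poly-A controls, bacterial sequences with probe sets at the 3' end and the middle, the 3' signal was 1.38 above that of the middle there. The other tyrosol arrays had an excess of 0.84 (replicate 1) and 0.94 (replicate 3), and the controls one of 0.96, 1.02 and 0.78. The 2 arrays with the largest 3' excess are thus the 2 on which the low-class col genes were highest, and the part of this measure in the family's shifts was not tested. With it as a covariate in limma, an alternative added after the data were seen for the medians, the family's median difference was -0.059 and the class medians -0.092, -0.052 and 0.029, with 0 col genes called. Over all genes the median was then -0.021, and -0.018, -0.022 and -0.031 in the low, middle and high class.

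The high-class genes differed in opposite directions between replicate numbers. Over all probe sets the deviations of same-numbered arrays correlated at only 0.11, 0.37 and 0.26, and no shared culture is stated. In the high class the replicate 2 arrays deviated in opposite directions, with medians of 0.20 (control) and -0.14 (tyrosol). A difference between them thus holds both deviations and is no matched effect. Between same-numbered arrays the median high-class difference was 0.18 for replicate 1, -0.33 for replicate 2 and 0.23 for replicate 3. It was above 0 in 16, 3 and 13 of the 17 genes, or 94.1%, 17.6% and 76.5%. Over all genes of the class 41.9%, 39.3% and 45.3% were above 0, with medians of -0.020, -0.058 and -0.015. In 13 of the 17 genes the tyrosol array was higher in both pair 1 and pair 3, as in 23.6% of all high-class genes. With both replicate 2 arrays left out, a choice made after the data were seen, the high-class median went from -0.041 to 0.23 and 16 of 17 genes lay above 0, where 6 did with all arrays, and the rank product and limma still called 0. That median rests on the 2 remaining arrays of each group.

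The pair 2 difference was largest in 8 high-class genes, which are grouped here after their values were seen. They are col-95, col-101, col-106, col-122, col-140, col-143, col-181 and col-184, each lower by more than 0.5 in that pair, with a range from -0.83 to -0.58. Of all high-class genes 5.52% were that much lower. All 8 were higher with tyrosol in pair 1, by 0.087 to 0.31, and 6 were higher in pair 3. The other 9 ran from -0.33 to 0.20 in pair 2. Outside that pair they were alike, with 8 of the 9 higher with tyrosol in pair 1 and 7 in pair 3. By probe set, 7 of the 8 genes named above were read on sets of the _at or _s_at kind. The last 1 was read on a set with shared probes (_x_at). Of the other 9, 1 and 8 were read on sets of these kinds.

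Named members of the high class show this array by array. The gene col-184 read 9.06, 9.33 and 9.06 in control worms and 9.32, 8.75 and 9.45 in tyrosol worms, so that the highest and the lowest of its 6 values both came from the tyrosol group. Its difference was 0.028 (SE 0.18, limma adjusted p = 0.98), and 0.24 without tyrosol replicate 2. For col-122 the values were 9.23, 9.51 and 9.17 against 9.35, 8.91 and 9.44, with a difference of -0.075 (SE 0.16), and 0.087 without that array. In like manner col-106, at 8.73, 9.18 and 8.80 against 9.03, 8.49 and 8.99, differed by -0.065 (SE 0.18) with all arrays and by 0.11 without it. The same array was the lowest for col-95, at 9.08, 9.49 and 9.07 against 9.31, 8.89 and 9.32, whose difference of -0.037 (SE 0.16) became 0.10 without it. Lowest on that array too was col-140, at 8.23, 8.61 and 8.35 against 8.39, 7.88 and 8.30, which differed by -0.20 (SE 0.16) and by -0.051 without it. The gene of the highest control mean, col-119, was lowest there too, with 9.39, 9.59 and 9.43 against 9.53, 9.33 and 9.73, a difference of 0.062 (SE 0.12). Its second set differed by -0.046.

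Not every bright member was lowest on that array. For col-160 tyrosol replicate 2 gave the highest value, with 8.44, 8.76 and 8.48 in control worms and 8.68, 8.83 and 8.78 in tyrosol worms, and the difference was 0.21 (SE 0.11, limma adjusted p = 0.76). Its second probe set, also with shared probes, differed by -0.12. For col-93 the groups overlapped at 8.74, 9.07 and 8.96 against 8.91, 9.02 and 8.81, with a difference of -0.0076 (SE 0.115) and of 0.10 on its second set.

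**Figure D4:**
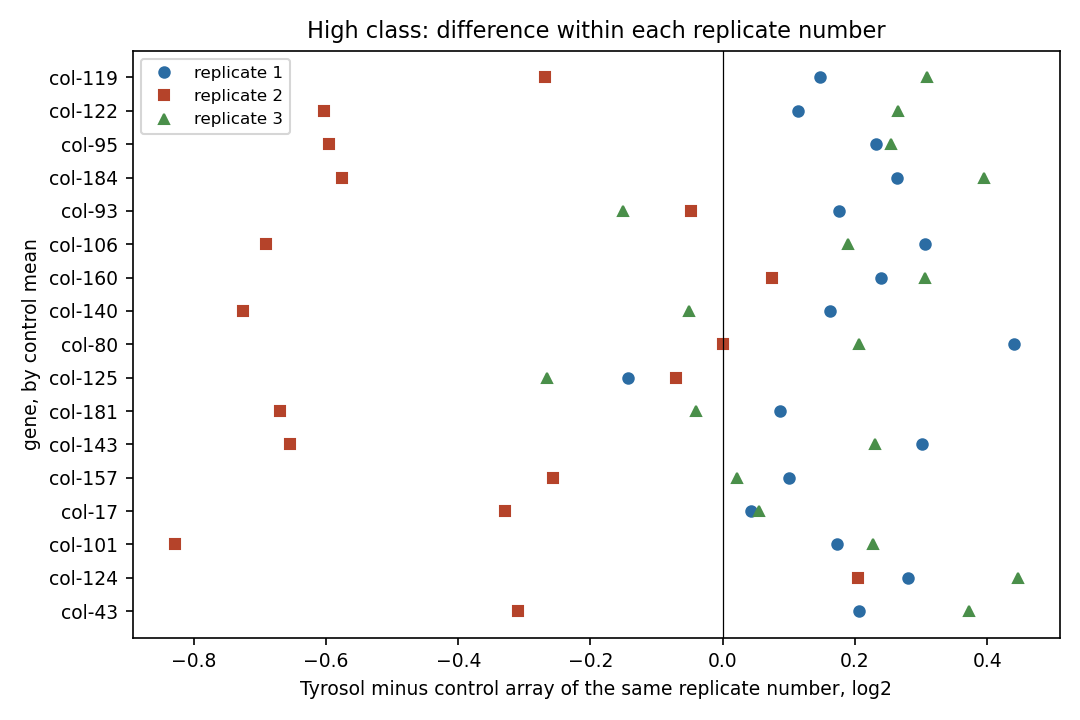
Difference (log2) between the tyrosol and the control array of each replicate number for the 17 high-class col genes, ordered by control mean. Replicates 1 and 3 lie mostly right of 0 (16 and 13 of 17 genes), replicate 2 mostly left (14 of 17), and 8 genes lie beyond -0.5 in replicate 2.

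In all, 16 col genes had 2 probe sets. The differences of a pair of sets had the same sign in 8 of the 16 genes and lay a median of 0.12 apart, at most 0.38, in col-131. The 17 probe sets that name several col genes, mostly bright with a median control mean of 7.95, differed by -0.33 to 0.28 with a median of -0.051, and 0 had separated groups or a call by either test. Of these 9 were in the high class. Their median between same-numbered arrays was 0.12, -0.21 and -0.096 for replicates 1, 2 and 3, with 8, 1 and 3 of 9 above 0, so in replicate 3 most lay below 0, unlike most of the 17 genes.

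Many col genes lie beside one another in the genome. In the RefSeq gene table (assembly WBcel235, used for names and neighbours alone) 45 col genes form 19 runs with no other protein-coding gene between them, the longest of 5 genes. In 10 runs at least 2 genes were measured here, and in 4 of the 10 all measured genes shared a signal class. The run of col-79, col-39 and col-80 spanned all classes, with control means of 3.63, 1.70 and 8.26 and differences of 0.020, 0.10 and 0.22. In that of col-17, col-20 and col-73 the differences were -0.077 (SE 0.11), 0.27 (SE 0.12) and -0.16 (SE 0.10). None passed a test, so these signs do not show whether the neighbours share a direction. The neighbours col-183 and col-184 fell in the low and the high class, with differences of -0.23 and 0.028.

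The genes that surround the family in its pathway were read from lists chosen with earlier results of these data known. The rank product called 0.859% of all genes higher and 0.0234% lower. Of 18 measured cuticle collagens named for a phenotype, it called 1 higher and 0 lower, with a median difference of -0.043. This was dpy-14, at 4.13, 4.73 and 4.28 in control worms and 5.23, 5.42 and 5.25 in tyrosol worms, a rise of 0.92 (SE 0.16) called by limma with the replicate block (adjusted p = 0.023) and not without it (adjusted p = 0.069). Farthest below 0 was the body-shape collagen gene dpy-5, at 2.53, 2.45 and 2.38 against 1.72, 2.26 and 1.60, whose tyrosol values lay below all control values and whose difference of -0.59 (SE 0.17, limma adjusted p = 0.35) did not pass. The bright sqt-3, on the other hand, differed by 0.091 (SE 0.095) and dpy-13 by -0.14 (SE 0.13), both with overlapping groups. Between the replicate 2 arrays alone sqt-3 differed by -0.047 and dpy-13 by -0.30. These 2 are named for their signal, outside the naming rule.

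Of 14 genes of collagen processing and cross-linking, 0 were called by the rank product or by limma, also with the block. Of all genes the rank product called 0.859% higher and 0.0234% lower, and limma called 0.351%. With the block these shares were 0.946%, 0.0292% and 0.73%. Beside such shares 0 of 14 says little about the list. The median difference was -0.0035. The tyrosol values lay wholly above the controls in 4 of the 14 and wholly below in 2, beside 6.92% and 6.78% of all genes. Among the 4 were phy-3 (0.38) and dpy-31 (0.24), and the 2 were bli-4 (-0.16) and dpy-11 (-0.23). The prolyl 4-hydroxylase subunit gene dpy-18, whose product hydroxylates procollagen and stabilises the triple helix, lay farthest from 0, at 5.88, 5.65 and 5.94 against 6.28, 6.57 and 6.40. Its difference of 0.59 (SE 0.12) missed both thresholds, with a rank product false discovery rate of 0.064 and a limma adjusted p of 0.12. The next was phy-2, which encodes the other hydroxylase subunit that acts on cuticle collagens, at 0.42 (SE 0.14, limma adjusted p = 0.50), and its tyrosol values also lay above all control values. The disulfide isomerase gene pdi-2, the partner of these subunits, differed by -0.042 (SE 0.087), and the dual oxidase gene bli-3, whose product forms the tyrosine cross-links, by 0.032 (SE 0.19), both named for their role and outside the naming rule.

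The regulators of cuticle collagens were not called either, 0 of 9 by both tests. Of all genes the rank product called 0.859% higher and 0.0234% lower, and limma called 0.351%. Beside such shares 0 of 9 says little about the regulators. The zinc finger gene blmp-1 and the nuclear receptor gene nhr-25, both of which act in the moulting cycle, lay farthest from 0, at 0.35 each (SE 0.11 and 0.13, limma adjusted p = 0.44 and 0.61), with tyrosol values above all control values in both. The regulator of col-19, lin-29, differed by 0.028 (SE 0.20), and elt-3, an epidermal GATA factor that drives collagen genes, by -0.14 (SE 0.14), again named for their role. The list's median difference was 0.17, with 8 of 9 above 0, where 44.7% of all genes lay above 0. The tyrosol values lay wholly above the controls in 3 of the 9, sma-9 being the third, beside 6.92% of all genes.

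Of 12 genes of moulting, 3 rose by the rank product and 0 fell, with a median difference of 0.22. Of all genes 0.859% were called higher and 0.0234% lower, and the list was chosen with results known. The protease inhibitor gene mlt-11 rose by 1.16, and the apical matrix genes noah-1 and noah-2 by 0.86 and 0.83. Limma with the replicate block called the same 3, with adjusted p of 0.046, 0.032 and 0.020, and without it noah-2 alone, with an adjusted p of 0.0499. Of all genes limma called 0.73% with the block and 0.351% without it. Of 3 basement membrane collagen genes, which are not cuticle collagens, 0 were called. The farthest from 0 were emb-9, which encodes a chain of type IV collagen, at 0.28 (SE 0.099), and cle-1, which encodes a type XV/XVIII collagen, at 0.17 (SE 0.11). The remaining gene, let-2, went the other way, at -0.15 (SE 0.11).

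**Figure D5:**
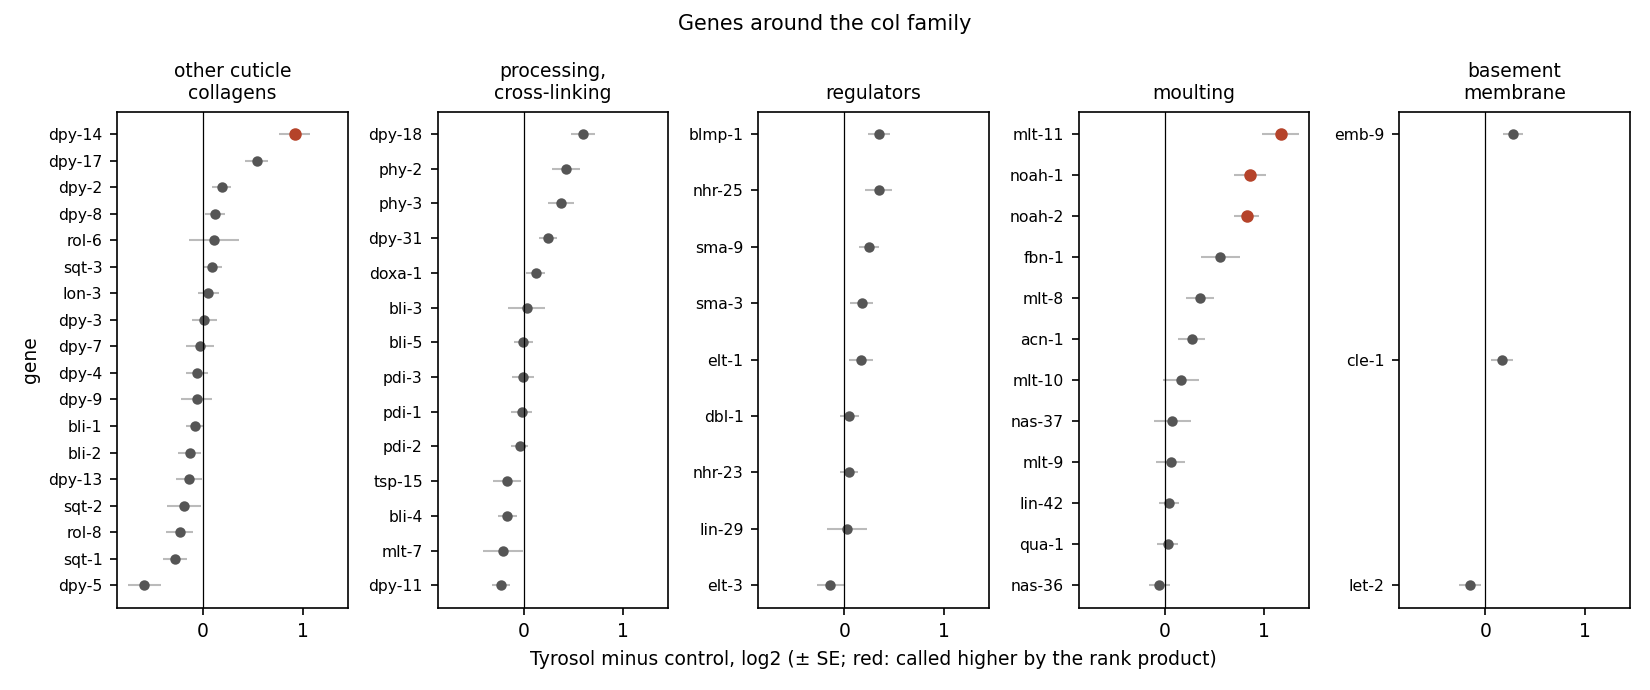
Difference between tyrosol and control (log2, ± SE from limma, n = 3 arrays each) of genes around the col family, in 5 lists; red points were called higher by the rank product. Only dpy-14, mlt-11, noah-1 and noah-2 are red among the measured genes of these lists.

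Defining genes of other tissues were read beside the family. The epidermal identity gene lin-26 read 8.12 to 8.31 on all arrays, and 0 of 6 epidermis markers were called. Neither were any of 5 intestine, 4 body wall muscle, 4 neuron or 4 germ line markers. All 5 sperm markers and 3 of 6 markers of the moulting epidermis were called higher by the rank product, beside 0.859% of all genes. Limma called 3 of these 5 and 1 of these 6, beside 0.351% of all genes. The markers, like the lists, were chosen with earlier results of these data known, so these counts are no test. The sperm markers msp-3, msp-19, msp-77 and gsp-3 were read on sets with shared probes and may not be separate readings. The 6 moulting markers are all in the list of moulting genes above. The 3 called are the same mlt-11, noah-1 and noah-2, so this is no separate observation. The brightest of the 6 was noah-1, with a control mean of 6.28. The summed linear signal of the moulting markers was 109.9 to 160.8 on control arrays and 214.3 to 238.7 on tyrosol arrays, and that of the sperm markers 34.8 to 78.7 and 144.5 to 173.2. The part of these rises in the col values was not tested.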

How the data were processed

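The authors hybridised labelled total RNA of 6 samples to the Affymetrix C. elegans Genome Array and deposited log2 values, 1 per probe set and array, made with RMA in affylmGUI, per the deposited design text, which states no version. That the scale is log2 was read from the range of 0.47 to 12.53. No scanner files were used here, and the number of arrays limits the precision. Arrays were grouped by the treatment in the labels, and no pair of arrays was identical.

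Of 22625 probe sets, 77 control sets were left out. Names came from the platform annotation, updated through Entrez numbers and the RefSeq gene table: 20766 sets name 1 gene, 887 several and 895 none. A gene is represented by its probe set of highest mean over 6 arrays among those naming 1 gene. Only names and neighbours were taken from that table, and no sequence is shown.

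The rank product was programmed anew in Python 3.11.15 (numpy 2.4.6, pandas 2.3.3): all 9 tyrosol-minus-control differences, 100 permutations within arrays, called at a false discovery rate under 0.05. Limma 3.58.1 in R 4.3.3 (lmFit, eBayes) gave differences, SEs and Benjamini-Hochberg adjusted p over 22548 probe sets. Both were tested on simulated data. Deviations of same-numbered arrays from their group means correlated at 0.11, 0.37 and 0.26 for replicates 1, 2 and 3. Each was over 0.1, so the numbers were used as a block in an alternative fit. This block was chosen from the data and not from a stated shared culture. Correlations between arrays of unlike number are not given here, so a pairing is not shown.

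The family and the lists were chosen with earlier results of these data known. Genes named were those called, the 4 largest separated differences in each direction per signal class, the 8 of highest control mean, those with a described role, and called or extreme members of the lists. Alternatives were leaving out arrays, _s_at and _x_at probe sets or dim probe sets, a replicate block, a 3' covariate, a variance trend, another seed, averaged probe sets, other centring and other class limits.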

Additional observations from a re-analysis of the deposited data

How the results depend on the processing

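The counts of 0 col genes called by the rank product and by limma held under each alternative run: without each array in turn (0 to 0), without both replicate 2 arrays, with the replicate block (0 and 0), without dim probe sets or without _s_at and _x_at sets, with another seed (rank product), and with a variance trend or the 3' covariate (limma). The family's median ran from -0.062 to 0.060 without single arrays, and the class medians from -0.12 to 0.086 (low), -0.067 to 0.074 (middle) and -0.10 to 0.10 (high), across 0 each time. The high-class median was 0.23 without both replicate 2 arrays, a choice made after the data were seen. The count of 7 genes with separated groups was 3 of 80 without _s_at and _x_at sets, 59 without both replicate 2 arrays (24.2% above and 21.9% below, beside 18.8% and 20.4% of all genes), and 11 to 30 without single arrays, where fewer values separate more easily. Without control replicates 1, 2 and 3 in turn, 6, 21 and 10 lay above and 7, 3 and 4 below, beside 9.79%, 12.2% and 10.05% above and 12.3%, 11.6% and 10.9% below of all genes. Without tyrosol replicates 1, 2 and 3 in turn, 17, 7 and 8 lay above and 1, 23 and 3 below, beside 11.4%, 11.9% and 10.6% above and 11.5%, 14.6% and 13.2% below of all genes.

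Directions changed for 13 of the 22 members named by the rule. With the 3' covariate col-95, col-106 and col-122 differed by 0.029, 0.030 and 0.0067, and with averaged probe sets col-93 by 0.047. Without both replicate 2 arrays col-49, col-93, col-95, col-106, col-120, col-122 and col-140 differed by 0.018, 0.012, 0.24, 0.25, -0.045, 0.19 and 0.056. Without single arrays the ranges were -0.32 to 0.050 for col-2, -0.21 to 0.079 for col-12, -0.12 to 0.073 for col-49, -0.39 to 0.031 for col-63, -0.100 to 0.066 for col-93, -0.11 to 0.10 for col-95, -0.18 to 0.15 for col-99, -0.16 to 0.11 for col-106, -0.039 to 0.17 for col-119, -0.020 to 0.22 for col-120, -0.18 to 0.087 for col-122 and -0.11 to 0.24 for col-184. Centring on brighter probe sets moved all genes by under 0.1. The cause of these changes was not tested. The other 9 members named by the rule kept their direction under the alternatives run for them. With averaged probe sets, however, col-150 went from 0.19 to 0.0021 and col-160 from 0.21 to 0.041. Of the 9, col-20, col-38, col-73, col-121, col-124 and col-160 have no value without _s_at and _x_at sets. Genes named outside it were only recomputed without single arrays, after the data were seen: the ranges crossed 0 for col-17 (-0.14 to 0.028), col-39 (-0.018 to 0.29), col-79 (-0.37 to 0.25), col-101 (-0.25 to 0.049), col-143 (-0.16 to 0.16), bli-3 (-0.14 to 0.26) and lin-29 (-0.17 to 0.19), and not for col-80, col-90, col-181 or col-183. With 3 arrays a group and signals near the array median for 73 of 128 genes, small differences could not be detected.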
